A study of Mus musculus with 2 samples.

Results

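The collagen genes are the rows of the count matrix whose symbols read Col, digits, a, digits. There were 44 of them among 35208 gene rows, and all 44 had reads. They were grouped by the kind of assembly that their chains build. There were 11 genes of fibrillar collagens, 6 of the basement membrane collagen IV, 6 of the beaded-filament collagen VI and 9 of fibril-associated collagens. Another 5 encoded anchoring-fibril and transmembrane collagens, 3 the network collagens VIII and X, 2 the multiplexins XV and XVIII, and 2 the collagens XXVI and XXVIII.

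Collagens are secreted or membrane-bound proteins in which 3 chains wind into a triple helix. Types I, III and V form the fibrils that carry the dermis, and dermal fibroblasts are their main source. Type IV forms the sheet of basement membranes below epithelium and around vessels and nerves, type VI forms filaments beside the cells, and types II, IX and XI form the fibrils of cartilage, which in the ear lies under the skin within a sheath called the perichondrium.

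Ear skin was taken from BALB/c mice in a model of IgE-mediated chronic allergic inflammation (IgE-CAI). Mice were given 300 µg of IgE against the hapten TNP by vein, and on the next day 10 µg of TNP-conjugated ovalbumin was injected into the right ear skin. The groups were wild-type (WT) mice on days 3 and 5 after challenge and Ccr2-/- mice, which lack the monocyte chemokine receptor CCR2 in every cell, on the same days. According to the methods of the study, the mice were males of 7 to 12 weeks. Each group was 1 pool of cells, marked with its own hashtag antibody and mixed before capture, so no group had a replicate, and the number of mice in a pool was not stated.

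After filtering, 7118 cells were kept, 1543 and 1037 of WT on days 3 and 5 and 2191 and 2347 of Ccr2-/-. They had 3113 to 713596 reads each, with a median of 33687. Ccr2, the deleted gene, was read at 939 and 678 CPM (a gene's reads scaled to the same total of reads in every pool and class, the usual counts-per-million unit; where 4 values follow each other, WT comes before Ccr2-/- and day 3 before day 5) in WT monocyte-macrophage-like cells on days 3 and 5, against 86.5 and 28.1 CPM in those of Ccr2-/-. Cells were classed by marker genes after clustering without any collagen gene and without the genes of the collagen pathway. The classes used here held 1980 fibroblast-like, 336 perichondrial-like, 114 blood endothelial-like, 160 lymphatic endothelial-like, 69 pericyte- or smooth muscle-like, 75 keratinocyte-like and 24 Schwann cell-like cells. The 8 fibroblast markers summed to 20628 CPM in fibroblast-like cells, 21305 CPM in perichondrial-like cells and 1064 CPM in leukocytes. That list did not separate the fibroblast-like from the perichondrial-like class. The 6 perichondrial markers summed to 4271 CPM in perichondrial-like and 233 CPM in fibroblast-like cells. These lists also named the classes, so the sums are no independent check. No cluster was named for cartilage cells, and the 5 chondrocyte markers measured summed to 36.4 to 112 CPM in perichondrial-like cells, against 4056 to 5549 CPM for the perichondrial markers.

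Collagen reads made up 15480564 reads, or 3.31% of the reads of all cells kept. The 3 genes of most reads, Col3a1, Col1a2 and Col1a1, held 77.6% of them and the first 12 held 97.0%. At the other end, 32 genes had at least 1000 reads and 3 had fewer than 100, namely Col4a6 with 87 reads, Col19a1 with 34 and Col10a1 with 1.

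Fibroblast-like cells gave 5.61% and 7.09% of their reads to collagen genes in WT on days 3 and 5, and 4.98% and 4.67% in Ccr2-/-. The median cell gave 4.23%, 5.26%, 4.18% and 4.24% in the same order. Both WT pools were above both Ccr2-/- pools in the summed share, whereas for the median cell WT day 3 was close to both Ccr2-/- pools. The means were 6.35% and 4.83%, a difference of 1.52 points, for which the exact two-sided permutation test over the 4 pools gave p = 0.33, the smallest value that its 6 splits allow. With 1 pool left out the difference was 0.782 to 2.27 points.

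Perichondrial-like cells followed with 2.68% and 3.47% in WT and 3.31% and 3.20% in Ccr2-/-, and pericyte- or smooth muscle-like cells with 1.41% to 2.58%. Blood endothelial-like cells gave 0.608% and 0.244% in WT and 0.621% and 0.729% in Ccr2-/-. Leukocytes, which are not a main source of collagen, had 0.207%, 0.260%, 0.179% and 0.230%, with a median cell between 0.0829% and 0.104%. Their level is used below as the level of free RNA. Keratinocyte-like cells, at 0.0776% to 0.154% of their summed reads, were below the leukocytes in each of the 4 pools. By the median cell they were not below in WT day 5, with 0.111% in 5 cells against 0.0829%.

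Some sums rested on a single cell. In lymphatic endothelial-like cells of WT day 3 the share was 3.64%, but 1 of 31 cells held 89.3% of the collagen reads, and the median cell had 0.195%. In T cell-like cells of WT day 3, 1 of 64 cells held 68.6%. The counts are reads and not molecules, so that copies made by PCR were counted separately. The intervals given here are exact Poisson 95% intervals and cover counting error only, and for the 12 members of most reads in fibroblast-like cells they were within 2.89% of the level in every pool. For low counts a floor of 3 reads was used.

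**Figure D1:**
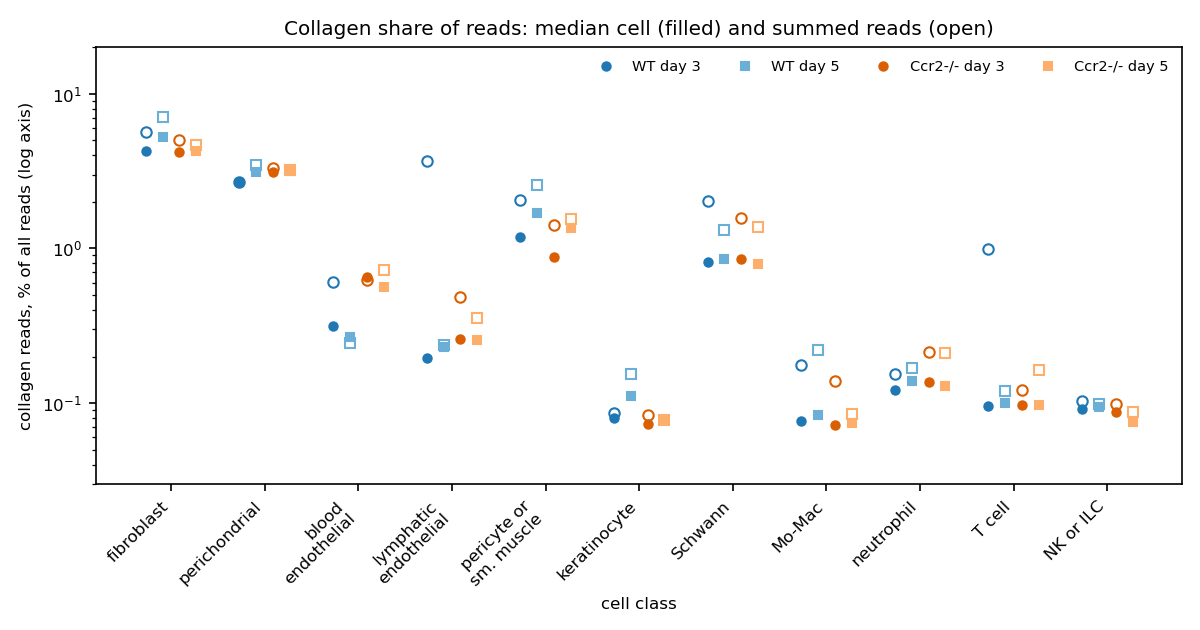
Share of all reads that came from the 44 collagen genes, in percent on a log axis, for 11 cell classes and the 4 pools (WT blue, Ccr2-/- orange; circles day 3, squares day 5). Filled symbols are the median cell and open symbols the summed reads. Fibroblast-like cells lie between 4.18% and 7.09%, and the open circle of lymphatic endothelial-like cells at 3.64% stands over a median cell at 0.195%.

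Each gene was then assigned to the class with its highest level over the summed pools. The 1 read of Col10a1 was in a leukocyte. Of the other 43 genes, 10 were highest in fibroblast-like cells, 8 in perichondrial-like cells, 12 in Schwann cell-like cells, 5 in pericyte- or smooth muscle-like cells, 3 each in lymphatic endothelial-like and keratinocyte-like cells and 2 in blood endothelial-like cells. The share of all genes highest in each class was not counted. The Schwann cell-like class held only 24 cells, 3 to 11 in a pool, and Col9a2 and Col25a1 were highest there at 3.20 CPM each. A stricter count took the genes at 5 times the leukocyte level or more, with over 3 reads, in all 4 pools. Fibroblast-like cells held 22 such genes of the 37 with over 3 reads in every pool, against 6.32% of all genes with such reads. Perichondrial-like cells held 17 of 28 (7.31% of all genes), pericyte- or smooth muscle-like cells 10 of 17 (7.25%) and Schwann cell-like cells 8 of 14 (12.8%). Blood endothelial-like cells held 5 of 17 (5.06%), lymphatic endothelial-like cells 5 of 16 (5.40%) and keratinocyte-like cells 1 of 15 (5.34%). In all, 28 members met this limit in at least 1 class, 8 of them in a single class, and 16 met it in none. No share over all genes was counted for these totals or for the counts that follow. Without the cell of most reads of each gene in every pool, which was tried after seeing the data, the counts were 21 in fibroblast-like, 16 in perichondrial-like, 7 in pericyte- or smooth muscle-like, 4 in blood endothelial-like, 5 in lymphatic endothelial-like, 1 in keratinocyte-like and 1 in Schwann cell-like cells.

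**Figure D2:**
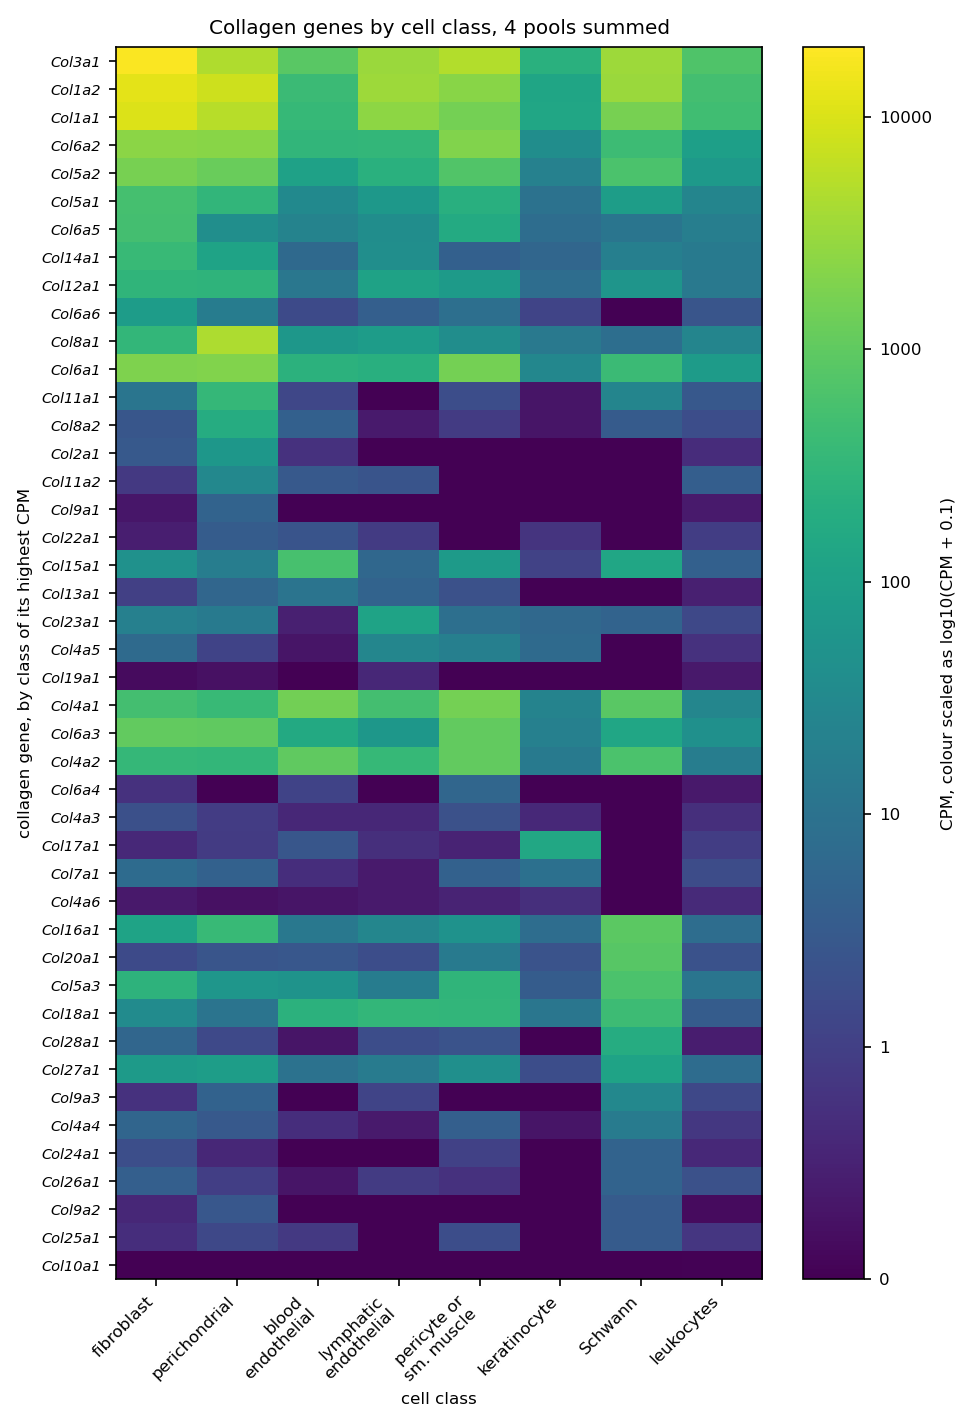
Heat map of the 44 collagen genes (rows, ordered by the class of their highest level, with Col10a1 last) in 7 cell classes and in leukocytes (columns), with the 4 pools summed. The colour is CPM on the scale log10(CPM + 0.1). The type I and III genes fill the upper left, Col8a1 reaches 4417 CPM in perichondrial-like cells, and Col17a1 is bright in keratinocyte-like cells alone of those drawn, at 150.2 CPM.

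Among the fibrillar collagens, Col3a1 (chromosome 1, 45311538 to 45349706, plus strand, GRCm38.p6), which encodes the chain of type III collagen, had 20067 and 24213 CPM in WT on days 3 and 5, and 17226 and 17195 CPM in Ccr2-/- in fibroblast-like cells. Col1a1 (chromosome 11, 94936224 to 94953042, plus strand) and Col1a2 (chromosome 6, 4505618 to 4541543, plus strand) encode the chains of type I collagen. Col1a1 had 11638 and 16969.6 CPM in WT on days 3 and 5, and 9862 and 8603 CPM in Ccr2-/-, and Col1a2 had 13918, 18460.4, 12136 and 10237 CPM in the same order. For the 3 genes both WT pools lay above both Ccr2-/- pools, and WT day 5 was the highest pool. The share of all genes with that order was not counted. Blood endothelial-like cells had 387, 193, 172 and 469.6 CPM of Col1a1. In leukocytes of the same pools Col3a1 was at 547 to 808 CPM, Col1a1 at 359 to 553 CPM and Col1a2 at 373 to 661 CPM.

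Ratios of 2 genes were compared between classes, because gene length cancels there. The ratio of Col1a1 to Col1a2 reads was 0.84 (pools 0.813 to 0.919) in fibroblast-like cells, 0.682 (pools 0.655 to 0.769) in perichondrial-like cells and 0.901 (pools 0.837 to 0.962) in leukocytes. The perichondrial range lay below the fibroblast range, and the leukocyte range overlapped the latter. The ratio of Col3a1 to Col1a1 was 1.76 (pools 1.43 to 2.0) in fibroblast-like cells, 0.884 (pools 0.694 to 0.993) in perichondrial-like cells and 3.11 (pools 1.85 to 4.55) in pericyte- or smooth muscle-like cells. Perichondrial-like cells held less type III for their type I reads in all 4 pools, with 4739, 7268, 5711 and 4951 CPM of Col1a1 and 3290.4, 5762, 5116 and 4916 CPM of Col3a1.

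The type V chains, which join type I and III chains in fibrils, were read in every fibroblast pool. Col5a1 had 569.6 and 895 CPM in WT on days 3 and 5, and 449.9 and 585 CPM in Ccr2-/- in fibroblast-like cells, and Col5a2 had 1573, 2121, 1409.9 and 1741 CPM. The pools overlapped between genotypes for both. Col5a3, another type V chain, had 279, 310.0, 238 and 304 CPM in fibroblast-like cells and 206, 532, 225 and 345 CPM in pericyte- or smooth muscle-like cells, beside 8.73 to 15.4 CPM in leukocytes. In the 24 Schwann cell-like cells it had 338, 111, 900.0 and 556 CPM, from 8 to 224 reads a pool. The minor fibrillar genes were Col27a1, at 41.3 to 94.5 CPM in fibroblast-like cells, and Col24a1, at 1.78 CPM over the summed pools.

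Of the 6 cartilage fibril genes, Col2a1, Col11a1, Col11a2 and Col9a1 were highest in perichondrial-like cells. Col9a2 and Col9a3 were highest in the 24 Schwann cell-like cells, at 3.20 and 30.4 CPM over the summed pools against 2.68 and 4.65 CPM in perichondrial-like cells, on 2 and 19 Schwann reads. Col11a1, a chain of type XI collagen (chromosome 3, 114030479 to 114220756, plus strand), had 347 and 352 CPM in WT on days 3 and 5, and 309 and 371 CPM in Ccr2-/- there, and 14.3, 22.9, 8.92 and 9.34 CPM in fibroblast-like cells. All 4 perichondrial pools were above all 4 fibroblast pools. The ratio of Col11a1 to Col5a1, whose chains are close relatives, was 1.10 (pools 0.864 to 1.17) in perichondrial-like and 0.02 (pools 0.016 to 0.0256) in fibroblast-like cells. Col2a1, the chain of type II collagen, had 48.3, 37.4, 113 and 34.3 CPM in perichondrial-like cells, with intervals of 42.6 to 54.6, 29.5 to 46.6, 106 to 120.2 and 30.9 to 38.1. In fibroblast-like cells it had 18.8, 0.181, 0.849 and 0.455 CPM, and 1 cell held 73.3% of its WT day 3 reads. Col11a2 was at 13.5 to 95.8 CPM in perichondrial-like cells, and in WT day 5 a single cell held 52.5% of the reads.

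The network collagen VIII genes were read at far higher levels in perichondrial-like than in fibroblast-like cells. Col8a1 (chromosome 16, 57624256 to 57754737, minus strand), a short chain known from sheet-like lattices such as that of the cornea, had 4421 and 3183 CPM in WT on days 3 and 5, and 4675 and 4436 CPM in Ccr2-/- in perichondrial-like cells. It had 271, 239, 304 and 395 CPM in fibroblast-like cells and 10.5 to 36.9 CPM in leukocytes. Every perichondrial pool was above every fibroblast pool. Its partner chain Col8a2 had 258, 309, 198 and 123 CPM in perichondrial-like cells and 4.13, 2.93, 2.54 and 1.86 CPM in fibroblast-like cells, where its level was near that of the leukocytes at 1.19 to 3.04 CPM. The 2 genes were not read in a fixed ratio, since Col8a1 to Col8a2 was 23.3 (pools 10.3 to 36.2) in perichondrial-like and 128 (pools 65.6 to 212) in fibroblast-like cells. Col10a1, the related chain of growing cartilage, had 1 read in all.

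Col3a1, the gene of most reads, was higher in fibroblast-like than in perichondrial-like cells, and Col8a1 the reverse. For this pair the 100 bases before the annotated start are shown from RefSeq (GRCm38.p6), in the direction of the gene. Capitals mark the GC box, GGGCGG, a binding motif of Sp1, read on either strand. Col3a1 lies at chr1:45311438-45311537 on the plus strand and Col8a1 at chr16:57754738-57754837 on the minus strand.
Col3a1: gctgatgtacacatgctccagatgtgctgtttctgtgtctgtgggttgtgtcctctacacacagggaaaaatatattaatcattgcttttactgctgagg
Col8a1: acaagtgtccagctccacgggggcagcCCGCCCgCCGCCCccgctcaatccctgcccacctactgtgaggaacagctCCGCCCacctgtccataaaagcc
The Col3a1 window held no GC box and the Col8a1 window held 3. The 250 bases before the start of the 35 members with an entry were searched on both strands. The GC box was found in 21 of 35 members (60%) and in 32.7% of the 32851 promoters of that length. The CCAAT box was found in 13 (37.1%, against 33.8% of all) and the TATA box, searched as TATAAA, in 5 (14.3%, against 12.4%). No motif searched is part of another. Col1a1, Col2a1, Col4a3, Col5a2, Col9a3, Col12a1, Col14a1, Col22a1 and Col26a1 had no entry.

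Type IV collagen is built mostly from the chains of Col4a1 and Col4a2, whose genes lie head to head on chromosome 8 and overlap by 85 bases at their starts (11198423 to 11312889 on the minus strand and 11312805 to 11449287 on the plus strand). Col4a1 had 1095 and 448 CPM in WT on days 3 and 5, and 2005 and 2059 CPM in Ccr2-/- in blood endothelial-like cells and 351, 289, 623 and 642 CPM in lymphatic endothelial-like cells. Pericyte- or smooth muscle-like cells had 924, 2919, 1613 and 1732 CPM, of which the WT day 5 value came from 4 cells with 92.1% of the reads in 1 cell. Fibroblast-like cells had 517 and 478 CPM in WT on days 3 and 5, and 503 and 567 CPM in Ccr2-/-, a narrower range, beside 22.2 to 37.7 CPM in leukocytes. Col4a2 had 337, 327, 344 and 357 CPM in fibroblast-like cells, 775, 449, 1467 and 1178 CPM in blood endothelial-like cells and 720.3, 1741, 1038 and 1222 CPM in pericyte- or smooth muscle-like cells. In this last class its own markers summed to 10603 CPM over the summed pools. Blood endothelial markers summed there to 2298 CPM, fibroblast markers to 1397 CPM and neutrophil markers to 572, 27.9, 4841 and 3384 CPM by pool. Their part in the collagen levels of that class was not tested.

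The ratio of Col4a1 to Col4a2 was 1.52 (pools 1.46 to 1.59) in fibroblast-like, 1.5 (pools 0.998 to 1.75) in blood endothelial-like, 1.45 (pools 1.28 to 1.68) in pericyte- or smooth muscle-like and 1.20 (pools 1.12 to 1.49) in perichondrial-like cells. These ranges overlap. The other pairs of the family also lie head to head, Col4a3 with Col4a4 (spans overlapping by 114 bases on chromosome 1) and Col4a5 with Col4a6 (1274 bases apart on chromosome X). Col4a5 had 6.58 CPM in fibroblast-like cells over the summed pools and Col4a6 had 0.125, a ratio of reads, not corrected for length, of 52.5 (pools 37.2 to 71.0). In lymphatic endothelial-like cells Col4a5 had 31.3, 46.8, 7.23 and 34.5 CPM, with intervals from 4.05 to 11.9 in the lowest pool to 33.5 to 63.8 in the highest, against 0.069 to 1.02 CPM in leukocytes. Col4a3 and Col4a4, best known from the kidney filter, had 1.90 and 5.36 CPM in fibroblast-like cells.

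The multiplexins of vessel basement membranes divided the endothelial classes. Col15a1 (chromosome 4, 47207655 to 47313167, plus strand) had 527 and 261 CPM in WT on days 3 and 5, and 630.3 and 738 CPM in Ccr2-/- in blood endothelial-like cells, but 7.82, 0, 11.1 and 1.68 CPM in lymphatic endothelial-like cells and 2.73 to 6.82 CPM in leukocytes. Col18a1 (chromosome 10, 77052178 to 77166530, minus strand), whose protein releases the fragment endostatin, had 291, 121, 192 and 317 CPM in blood and 222, 636, 272 and 347 CPM in lymphatic endothelial-like cells, so that these ranges overlap. The ratio of Col15a1 to Col18a1 was 2.25 (pools 1.81 to 3.27) in blood endothelial-like, 0.0174 (pools 0 to 0.0407) in lymphatic endothelial-like and 0.244 (pools 0.0573 to 0.312) in pericyte- or smooth muscle-like cells. Both blood endothelial-like values of Col4a1 and of Col15a1 in Ccr2-/- were above both in WT, and WT day 5 had only 18 cells, under the 20 required for a test. The share of all genes with that order was not counted. The leukocyte gene Ptprc moved with genotype in the same class, at 64.1 and 61.5 CPM in WT against 9.44 and 22.5 CPM in Ccr2-/-. The monocyte-macrophage list (8 of 8 genes with reads) summed to 576 and 3708 CPM in WT against 64.2 and 149 CPM in Ccr2-/-, and the fibroblast markers (8 of 8) to 339.6, 266, 262 and 1910.4 CPM. Their part in these values was not tested.

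Col23a1, a transmembrane collagen, had 71.0 and 81.9 CPM in WT on days 3 and 5, and 128 and 155 CPM in Ccr2-/- in lymphatic endothelial-like cells, 0 to 0.472 CPM in blood endothelial-like cells and 8.54 to 32.7 CPM in fibroblast-like cells. All 4 lymphatic pools were above all 4 of either class. Col13a1, another transmembrane collagen, was highest in blood endothelial-like cells at 10.9, 41.0, 3.30 and 5.69 CPM, but these were 41, 48, 7 and 19 reads, and 1 cell held all of them in both day 3 pools. Leukocytes had 25 reads of it in WT day 3 and 0 in the other pools. Col25a1 had 242 reads in all cells.

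In keratinocyte-like cells Col17a1 (chromosome 19, 47646341 to 47692042, minus strand), the transmembrane collagen of hemidesmosomes that anchor basal keratinocytes, had 118 and 341 CPM in WT on days 3 and 5, and 165 and 134 CPM in Ccr2-/-. The intervals were 108 to 129, 300.4 to 385, 148 to 184 and 121 to 148, and the highest value came from 5 cells. Fibroblast-like cells had 0.231 to 0.435 CPM and leukocytes 0.0873 to 1.55 CPM. Col17a1 was the only member at 5 times the leukocyte level in all 4 keratinocyte pools. Col1a1 had 147, 139, 119 and 132 CPM and Col3a1 232, 286, 232 and 199.8 CPM in the same cells. Col7a1, the chain of the anchoring fibrils below the epidermis, had 3.47, 9.28, 0.503 and 22.0 CPM in keratinocyte-like cells, on 1 to 63 reads a pool.

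**Figure D3:**
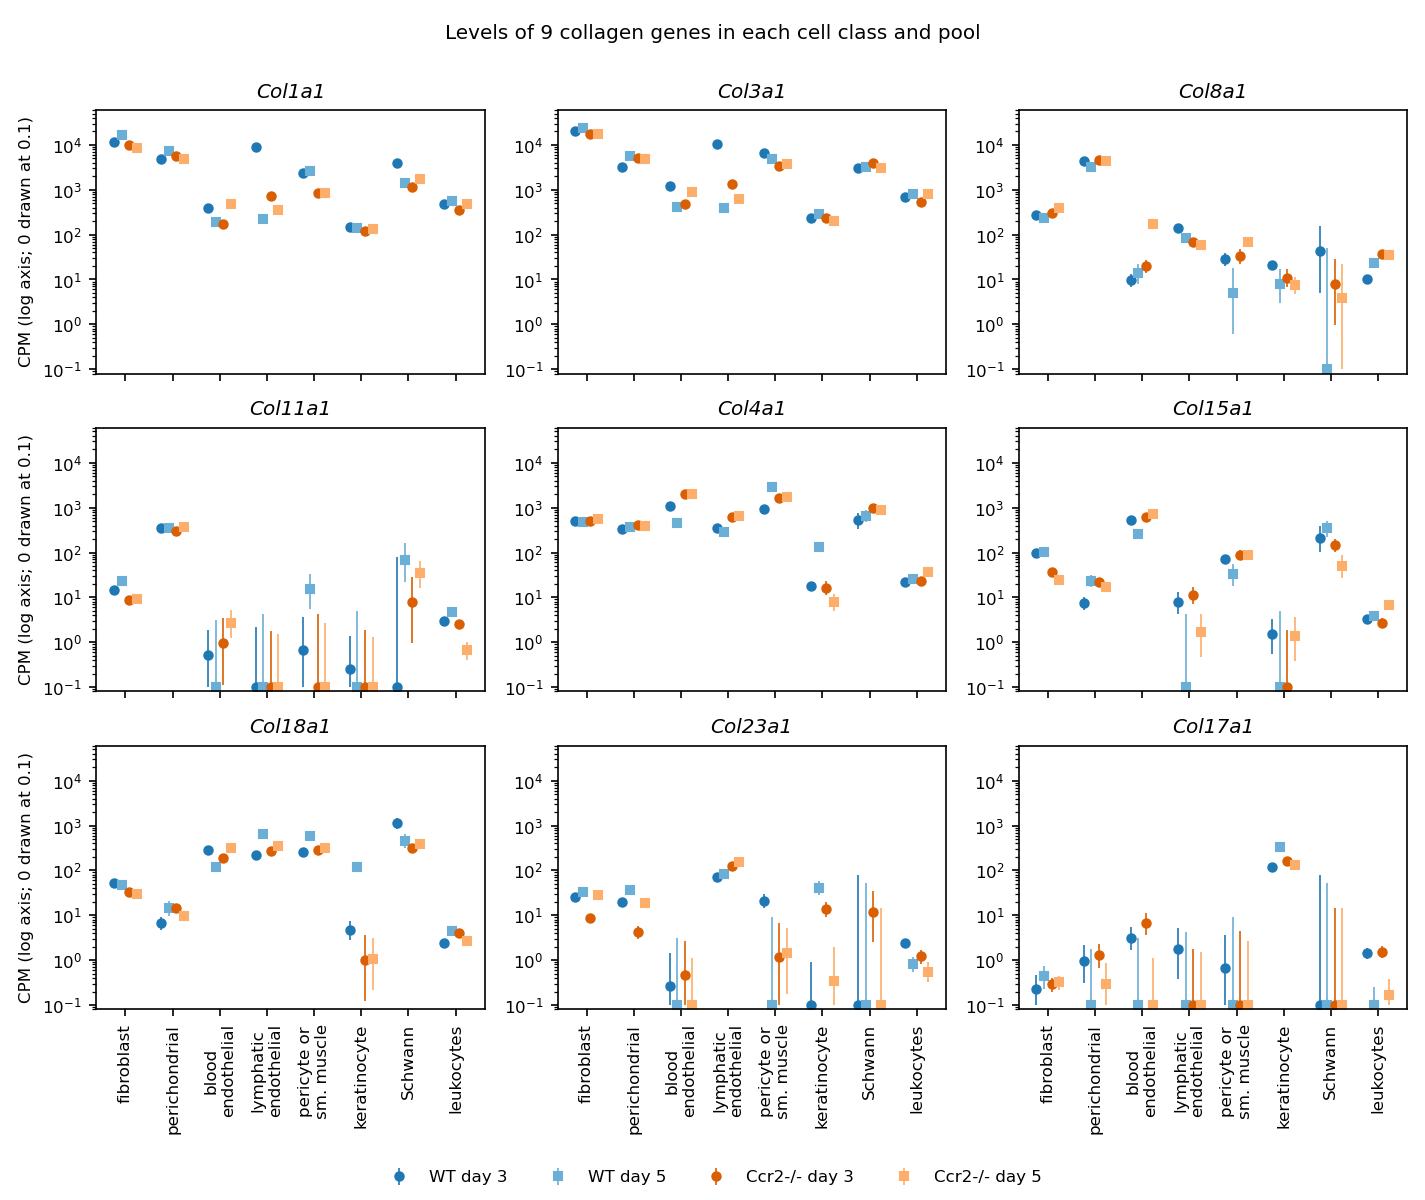
CPM (log axis, 0 drawn at 0.1) of 9 collagen genes in 7 cell classes and leukocytes for the 4 pools (WT blue, Ccr2-/- orange; circles day 3, squares day 5). Bars are exact Poisson 95% intervals of the read counts. Col8a1 and Col11a1 stand out in perichondrial-like cells in all 4 pools, Col15a1 separates blood from lymphatic endothelial-like cells, and Col17a1 lies above 100 CPM in keratinocyte-like cells and below 10 CPM in the other classes drawn.

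Type VI collagen was shared among the connective tissue classes. Col6a1 had 1903 and 2001 CPM in WT on days 3 and 5, and 1953 and 1736 CPM in Ccr2-/- in fibroblast-like cells, 1539, 1684, 1965 and 2257 CPM in perichondrial-like cells and 1443, 1979, 1379 and 1599.7 CPM in pericyte- or smooth muscle-like cells. These ranges overlap. Col6a2 had 2429, 2397, 2565 and 2296 CPM in fibroblast-like and 1737, 2050.3, 2218 and 2604 CPM in perichondrial-like cells, and Col6a3 had 1106, 1109, 1078 and 1063 CPM and 679, 803, 1012 and 1268 CPM. Of the 12 members of most reads, the 3 core chains varied little between the fibroblast pools, within 1736 to 2001 CPM for Col6a1, 2296 to 2565 CPM for Col6a2 and 1063 to 1109 CPM for Col6a3. This was not particular to type VI, since Col4a2 lay within 327 to 357 CPM. In pericyte- or smooth muscle-like cells Col6a3 had 1096, 1718, 732 and 1112 CPM.

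The chains that can stand in for the α3 chain of type VI lie in a row on chromosome 9, Col6a6, Col6a5 and Col6a4, with 27823 and 27854 bases between them. Col6a5 (105856070 to 105962463, minus strand) had 316 and 168 CPM in WT on days 3 and 5, and 745 and 452 CPM in Ccr2-/- in fibroblast-like cells, beside 14.7 to 25.9 CPM in leukocytes. Both Ccr2-/- pools were above both WT pools. Col6a6 had 65.6, 58.6, 109 and 69.1 CPM in the same cells, and Col6a4 had 178 reads in all cells.

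The fibril-associated collagens, which sit on the surface of fibrils, differed by class. Col14a1 had 389.8 and 477 CPM in WT on days 3 and 5, and 351 and 358 CPM in Ccr2-/- in fibroblast-like cells and 88.3 to 234 CPM in perichondrial-like cells, and Col12a1 had 200.4, 181, 235 and 433 CPM and 229, 196, 251 and 342 CPM. For Col14a1 the 2 classes did not overlap, and for Col12a1 they did. Col16a1 had 141, 206, 103 and 109 CPM in fibroblast-like cells and 430.3, 448, 346 and 359.6 CPM in perichondrial-like cells, all 4 of which were higher. In Schwann cell-like cells Col16a1 had 1034, 236, 1563 and 524 CPM and Col28a1, a collagen known from nerves, had 1539.9, 97.4, 52.2 and 97.1 CPM, with 67% to all of its reads in 1 cell a pool. Col18a1 had 1139, 459, 309 and 396 CPM there. Of all collagen reads of this class, 1 cell held 77.7%, 89.9%, 57.4% and 41.6%, in pools of 4, 3, 11 and 6 cells. Col20a1 had 738, 0, 1410.3 and 567 CPM in the same cells, from 35, 0, 351 and 146 reads, where the 0 allows up to 41.7 CPM. Col9a1, Col9a2, Col9a3, Col19a1 and Col22a1 had 34 to 457 reads each in all cells.

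Fibroblast-like cells fell into groups, clustered and named without any collagen gene, that shifted with genotype. The cycling group took 16.1% and 13.2% of the fibroblast-like cells in WT and 39.4% and 40.0% in Ccr2-/-. Its size of 627 cells depended on the clustering. At Leiden resolution 0.5 and 2 the group so named held 981 and 309 cells, and 373 without the doublets marked by Scrublet. Cycling cells gave 4.01%, 5.25%, 4.0% and 3.56% of their reads to collagen genes, and the resting-type group 6.5%, 7.44%, 6.24% and 6.97%. The shares of these groups did not overlap. A share is not an amount per cell, since the median cell had 214770 reads in the cycling and 73910 in the resting-type group. Over all pools the cycling group held 5834747 collagen reads in 627 cells and the resting-type group 2366345 in 420. The group led by Spp1 and Mgp gave the largest share of its summed reads, 8.52%, 12%, 9.88% and 7.96%, from 24, 23, 39 and 17 cells. Its median cell in Ccr2-/- day 5 had 6.27%, against 6.32% in the resting-type and 6.53% in the inflammatory group. Of the 22 members at a mean of 5 CPM in both groups, 12 were lower in the cycling than in the resting-type group in 4 of 4 pools, against 22.1% of all genes at that level, and 4 were higher (Col6a5, Col8a1, Col12a1 and Col27a1), against 32.8%. Such comparisons within pools have no test here, since cells of a pool are not replicates.

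Col14a1, whose protein binds fibril surfaces, had 799, 818, 804 and 1000.1 CPM in the resting-type group (the WT days first, then the Ccr2-/- days) and 227, 256, 302 and 254 CPM in the cycling group. Col12a1, its relative, ran the other way with 73.1, 65.7, 128 and 111 CPM in the resting-type and 246, 339.8, 217 and 350.0 CPM in the cycling group. It was higher still in the inflammatory group at 599, 485, 519.6 and 992 CPM, from 7, 5, 10 and 89 cells. Col1a1 had 12649, 16828, 12102 and 12824 CPM in the resting-type group, 6839, 11178, 6821 and 5625 CPM in the cycling group and 23781, 36606, 27945 and 18431 CPM in the Spp1/Mgp group, 3 ranges that do not overlap. Col3a1 had 23362, 27314, 24147 and 28285 CPM in the resting-type and 15409, 17689, 13959 and 12354 CPM in the cycling group.

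In the Spp1/Mgp group 10 of 25 members were higher than in the resting-type group in all 4 pools (6.53% of all genes) and 6 were lower (17.1%). Col26a1 was among the higher ones with 167, 64.5, 31.8 and 55.3 CPM, but 1 cell held 39.6% to 99.4% of its reads in a pool. Col15a1 had 656, 423, 233 and 223 CPM there, 134, 84.5, 103 and 89.8 CPM in the resting-type group and 15.4, 52.1, 11.3 and 9.67 CPM in the cycling group. In the Igfbp3/Gm23935 group, of lower depth with a median of 32110 reads a cell, 11 of 24 members were lower (13.9% of all genes) and 6 higher (13.7%). In the Ccl19/CT868690.1 group 6 of 23 were lower (16.4%) and 5 higher (12.5%). Col4a5 had 28.7, 23.8, 19.7 and 22.4 CPM in the resting-type group and 1.67 to 2.82 CPM in the cycling group.

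**Figure D4:**
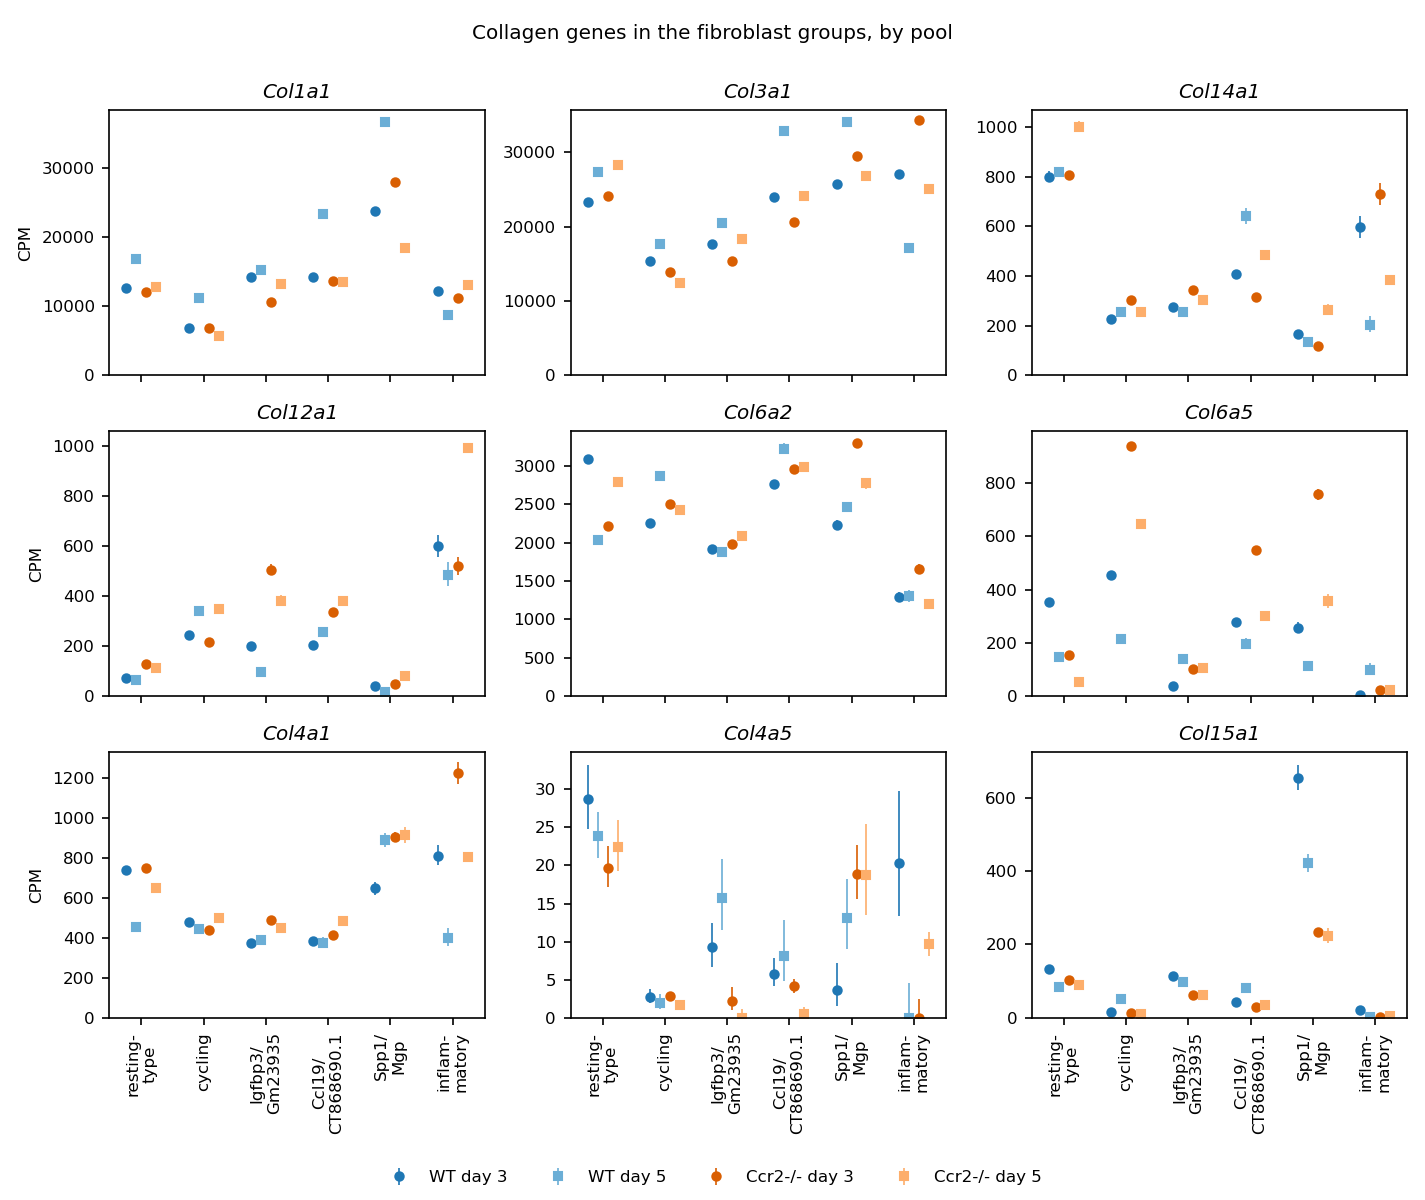
CPM (linear axis) of 9 collagen genes in the groups of fibroblast-like cells, for the 4 pools (WT blue, Ccr2-/- orange, circles day 3, squares day 5), with exact Poisson 95% intervals. Col14a1 lies higher and Col12a1 lower in the resting-type than in the cycling group in all 4 pools.

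The comparison of Ccr2-/- with WT asked what changed in fibroblast-like cells when CCR2 was absent. edgeR's quasi-likelihood test with Benjamini-Hochberg adjustment was fitted to the summed counts of the 4 pools, with day as a covariate, which leaves 1 residual degree of freedom. Of 20093 genes, 38 rose (0.189%) and 36 fell (0.179%) in Ccr2-/- at an adjusted p under 0.05. With library sizes alone as the scaling, 121 rose and 239 fell. Both counts were 0 at Leiden resolution 2, without doublets, with equal numbers of cells of each fibroblast group and with no filter on low counts, and with 1 pool left out they were 0 to 133 and 0 to 202, the highest without WT day 3. Of the 44 collagen genes 40 could be tested, and Col9a1, Col9a2, Col10a1 and Col19a1 could not. Of the 40, 1 rose, Col6a5, and 0 fell, while 5 were higher and 18 lower at an unadjusted p under 0.05, against 11.1% and 11.5% of all genes. DESeq2 called 3 members up and 13 down, against 4.2% and 4.36% of all genes (843 up and 876 down). Of the 40 members, 31 had a log2 ratio below 0, and the median was -0.50 against -0.02 over all genes. With the same number of cells of each fibroblast group from every pool, 23 of 35 were below 0 with a median of -0.15, and without cells holding a read of Ptprc 18 of 35 with a median of -0.04. The median fibroblast-like cell had 70569 and 73750 reads in WT against 130288.5 and 137023.5 in Ccr2-/-. In these cells the neutrophil marker list (6 of 6 genes with reads) summed to 37.9 and 51.7 CPM in WT against 78.1 and 100 CPM in Ccr2-/-, and the monocyte-macrophage list (8 of 8) to 74.6 and 95.3 CPM and to 53.8 and 61.4 CPM. Their part in the collagen ratios was not tested.

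Col6a5, a chain of type VI collagen, was at 316 and 168 CPM in WT against 745 and 452 CPM in Ccr2-/- (log2 ratio 1.33, SE 0.0894, adjusted p = 0.0462), higher on both days. The call did not hold in every alternative. With the same number of cells of each fibroblast group from every pool the log2 ratio was 0.60 (adjusted p = 0.309). Without WT day 3 the adjusted p was 0.0577, and without WT day 5, Ccr2-/- day 3 or Ccr2-/- day 5 it was 0.286, 0.396 and 0.273, in fits with no day term. The direction was upward in 15 of 15 alternatives, with a log2 ratio of 0.60 to 1.86, and 6 of them kept an adjusted p under 0.05 (range 1.32e-17 to 0.396). The alternatives reuse the same pools, so a kept direction is no independent support. Within the cycling group Col6a5 had 457, 216, 941 and 647 CPM and within the resting-type group 355, 147, 156 and 55.1 CPM, so that Ccr2-/- was higher in the first and lower in the second on both days (log2 ratios 1.33 and -1.33, adjusted p = 0.524 and 0.143).

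Col15a1 had 96.5 and 104 CPM in WT on days 3 and 5, and 37.3 and 23.8 CPM in Ccr2-/- in fibroblast-like cells (log2 ratio -1.74, SE 0.211, adjusted p = 0.0517), which missed the threshold. It was lower in Ccr2-/- on both days, and with equal numbers of cells of each group the log2 ratio was -0.74 (adjusted p = 0.309). Col4a5 had 9.67, 12.9, 5.41 and 5.04 CPM (log2 ratio -1.09, SE 0.245, adjusted p = 0.0864) and Col11a1 14.3, 22.9, 8.92 and 9.34 CPM (log2 ratio -0.98, SE 0.227, adjusted p = 0.0889). Col11a1 turned to 0.15 with equal numbers of cells of each group. Neither Col15a1 nor Col11a1 was at 5 times the leukocyte level in all 4 pools of fibroblast-like cells. The 6 perichondrial markers summed in these cells to 348 and 351 CPM in WT and to 195 and 202 CPM in Ccr2-/-. Their part in these ratios was not tested. Col23a1 had 25.5, 32.7, 8.54 and 28.9 CPM, and its lower value in Ccr2-/- lay mostly on day 3 (log2 ratio -0.86, SE 0.333, adjusted p = 0.214). Col12a1 had 200.4, 181, 235 and 433 CPM, higher mostly on day 5 (log2 ratio 0.75, SE 0.234, adjusted p = 0.15).

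The genes of most reads were lower in Ccr2-/- without passing the test. Their log2 ratios were -0.60 for Col1a1 (adjusted p = 0.15), -0.52 for Col1a2 (adjusted p = 0.164) and -0.35 for Col3a1 (adjusted p = 0.136). By pool, Col1a1 differed by -0.24 on day 3 and -0.98 on day 5. Of the 23 members with at least 200 reads in every pool, 14 were lower in Ccr2-/- on both days (35.7% of all such genes), 6 were higher (38.5%) and 3 went opposite ways. Within the resting-type group 5 of 19 were lower (25.9%) and 6 higher (31.4%), and within the cycling group 7 of 21 were lower (31.9%) and 4 higher (28.2%). Of the 19 members with 200 reads in every pool of both groups, 3 had ratios of opposite sign in the groups on both days (11.2% of 4206 such genes), and between fibroblast-like and perichondrial-like cells it was 1 of 16 (9.67% of 1769 genes).

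**Figure D5:**
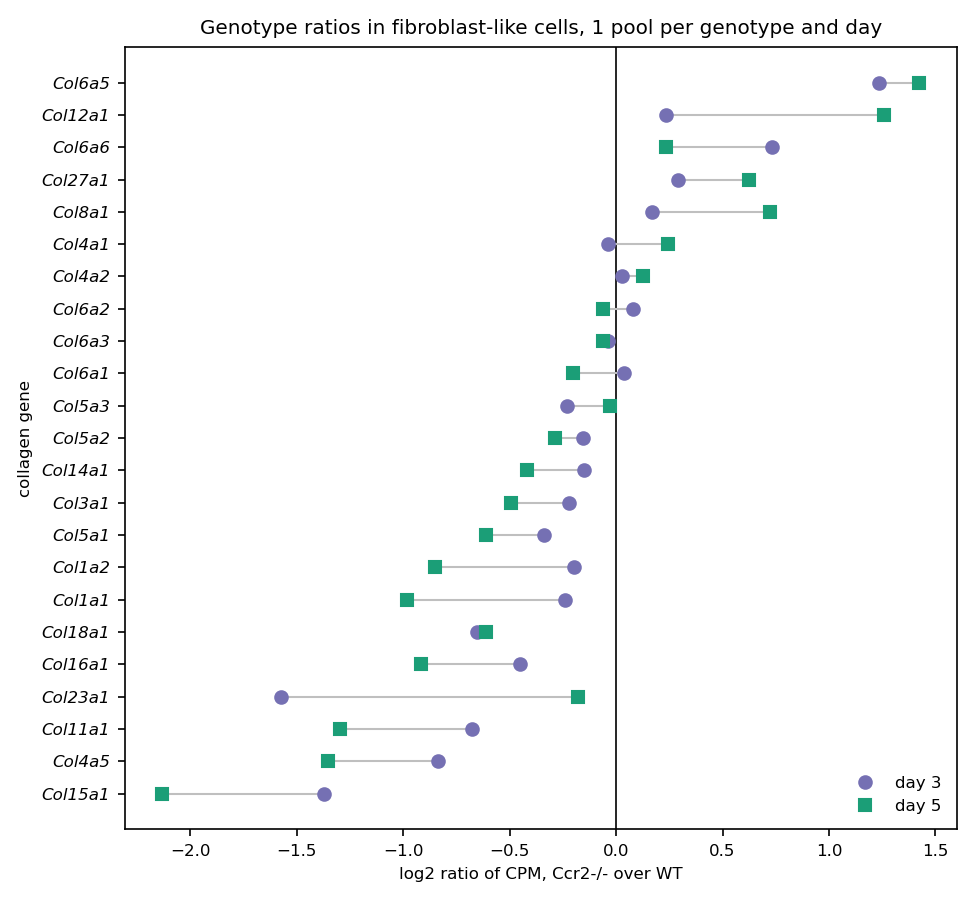
Log2 ratio of CPM, Ccr2-/- over WT, in fibroblast-like cells for the 23 collagen genes with at least 200 reads in every pool (circles day 3, squares day 5; 0 is no difference). Col6a5 lies at 1.24 and 1.42 and Col15a1 at -1.37 and -2.13, while Col6a1, Col6a2 and Col6a3 lie near 0.

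Between days 3 and 5, 0 of 20093 genes rose and 0 fell in fibroblast-like cells by edgeR, with 4.83% higher and 3.55% lower at an unadjusted p under 0.05 (1684 in all), and DESeq2 called 75 up (0.373%) and 80 down (0.398%). Among the collagen genes 4 were higher and 5 lower at an unadjusted p under 0.05, and the smallest adjusted p was 0.371 for Col6a5 (log2 ratio -0.81, day 5 over day 3). DESeq2 called 1 member up and 2 down. Within the resting-type group alone edgeR called 2 genes up and 2 down by genotype (0.0138% of 14482 each) and 1 up by day (0.00691%), and no collagen gene was among them.

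In perichondrial-like cells no collagen gene passed the genotype test (smallest adjusted p by edgeR = 0.579), with 7 of 33 higher and 2 lower at an unadjusted p under 0.05, against 4.28% of 14361 genes in either direction. In lymphatic endothelial-like cells the smallest was 0.639, with 2 of 21 higher and 2 lower, against 4.07% and 3.37% of 10998 genes. Of 17 members with 200 reads in every perichondrial pool, 3 were lower in Ccr2-/- on both days (37.1% of all genes) and 7 higher (25.3%). Col6a3 was higher there by 0.58 and 0.66 on the log2 scale on days 3 and 5, and Col8a2 differed by -0.39 and -1.34. Blood endothelial-like, pericyte- or smooth muscle-like, keratinocyte-like and Schwann cell-like cells had fewer than 20 cells in at least 1 pool and were not tested.

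The genes that make, join and cut collagen were read alongside in fibroblast-like cells. Of the 6 cross-linking genes 1 rose, Loxl4, at 36.0 and 25.6 CPM in WT against 76.0 and 55.4 CPM in Ccr2-/- (log2 ratio 1.10, SE 0.118, adjusted p = 0.048), and the log2 ratio was above 0 for 6 of 6. Of the 14 matrix genes whose proteins bind fibrils, 4 fell and 13 had a log2 ratio below 0. They were the small leucine-rich proteins Aspn (1174 and 1533 CPM in WT against 567 and 642 CPM in Ccr2-/-, log2 ratio -1.15, SE 0.0958, adjusted p = 0.0462), Lum (log2 ratio -0.94, adjusted p = 0.0462) and Ogn (log2 ratio -0.83, adjusted p = 0.0462), and the secreted glycoprotein Thbs2 (107 and 156 CPM in WT against 41.3 and 77.1 CPM in Ccr2-/-, log2 ratio -1.19, SE 0.122, adjusted p = 0.048). Lum had 1908 and 2123 CPM in WT against 1045 and 1053 CPM in Ccr2-/-. For these 4 genes, picked by the test, both WT pools were above both Ccr2-/- pools, a count without a share over all genes. The median log2 ratio was 0.60 for the cross-linking and -0.88 for the matrix genes, against -0.02 over all genes. The share of all genes above or below 0 was not counted. By DESeq2, which called 843 genes up and 876 down of 20093, 4 cross-linking genes were up, and 1 matrix gene was up and 8 down.

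Of the 8 genes for collagen-cleaving enzymes and their inhibitors 1 rose, Timp1, an inhibitor of metalloproteinases, at 1735 and 1153 CPM in WT against 3685 and 3485 CPM in Ccr2-/- (log2 ratio 1.35, SE 0.128, adjusted p = 0.0462). With equal numbers of cells of each fibroblast group, the log2 ratios were 1.07 for Loxl4, -0.35 for Aspn, -0.39 for Lum, -0.48 for Ogn, -1.03 for Thbs2 and 0.71 for Timp1, and all 6 calls were lost (adjusted p = 0.154 for Timp1 and 0.224 to 0.376 for the others). Each kept its direction in 15 of 15 alternatives, but an adjusted p under 0.05 in only 4 for Loxl4, 6 for Aspn, 6 for Lum, 5 for Ogn, 5 for Thbs2 and 7 for Timp1. The alternatives reuse the same pools from which these genes were picked, so a kept direction is no independent support. None of the 15 genes of chain modification passed the edgeR test (1 up and 2 down at an unadjusted p under 0.05, 0 by DESeq2), and none of the 13 of folding and export (1 up and 1 down, 0 by DESeq2). The same held for the 7 propeptide-removing genes tested (1 up and 2 down, 1 up by DESeq2) and the 11 receptor genes tested (1 up and 4 down, 3 down by DESeq2). Of all genes, 11.1% were up and 11.5% down at an unadjusted p under 0.05 by edgeR, and 4.2% and 4.36% by DESeq2. In those lists Colgalt2, which adds galactose to hydroxylysine, had a log2 ratio of -1.30 (adjusted p = 0.165), and the receptor gene Itga2 -1.25 (adjusted p = 0.107). By day 0 of the 74 genes tested in the 7 lists passed the edgeR test. At an unadjusted p under 0.05, 16 were up and 5 down, against 4.83% and 3.55% of all genes. DESeq2 called 2 up and 2 down, against 0.373% and 0.398% of all genes.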

How the data were processed

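Ear skin cells of 4 pools were marked with hashtag antibodies and sequenced by TAS-Seq on the BD Rhapsody system. The authors trimmed reads with Cutadapt, mapped them with Bowtie2 to mouse Ensembl RNA (GRCm38.p6) and deposited a matrix of read counts per gene and cell. The counts are reads without molecule collapsing, so PCR copies inflate them and intervals cover counting error only. Background correction is described by the study, but its effect was not visible in the whole-number counts. The number of mice in a pool was not stated, and no group had a replicate pool. The edgeR and DESeq2 p-values therefore do not measure the spread between pools of the same group. In the main fit they rest on what the genotype and day terms leave over. Each SE printed is the log2 ratio without its sign, divided by the square root of the F value of edgeR's test. It does not measure the spread between pools of the same group either.

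The deposited counts held 8953 barcodes. Cells were assigned to pools by the 4 hashtags in the labels, and 9 other hashtag columns were not used. Barcodes with more than 1 hashtag (570), over 20% mitochondrial reads (594) or under 10 hashtag reads (760) were dropped, classes that can overlap. Scrublet marked 0.909% of barcodes, 51 of them kept. Of the barcodes with several hashtags it marked 4.16%, so the settings named without doublets leave out only the cells it marked. Clustering used scanpy 1.11.5 and Leiden (leidenalg 0.10.2; 2000 variable genes, 30 components, 20 neighbours, resolution 1, and 0.5 within fibroblasts). No collagen or listed pathway gene took part in clustering, but Dcn, Lum, Dpt, Fbln1 and Fmod served as naming markers. Levels are CPM of summed reads. Genotype and day were tested with edgeR 4.0.16 (TMM, filterByExpr, quasi-likelihood, Benjamini-Hochberg; R 4.3.3), with DESeq2 1.42.0 as an alternative. Tested on simulated data of 20303 fibroblast genes with 200 changed, the genotype fit recovered 34% of 2-fold and 99% of 4-fold changes, with 2 false calls. The simulation gave every gene the same spread, with no day effect, no shift of cell groups and only upward changes. Its recovery and false calls therefore do not describe the real pools.

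The members and lists were chosen with earlier results of these data known. By a fixed rule, pool values were given for the 12 members of most reads in fibroblast-like cells, for members highest in another class at 5 times the leukocyte level in all 4 pools, for the 6 with the largest genotype ratio of the same sign on both days, and for up to 4 genes of each pathway list. Col2a1, Col4a3, Col4a4, Col4a6, Col6a6, Col7a1, Col9a1, Col11a2, Col20a1, Col24a1, Col25a1, Col26a1 and Col27a1 were otherwise named after their values were seen. Settings varied were the hashtag ratio, Leiden resolution, marker gates, doublets, free-RNA level, scaling, low-count filter and each pool left out.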

Additional observations from a re-analysis of the deposited data

Results flagged for a closer look

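Of 19 members compared, 3 had a genotype ratio that moved in opposite directions in cycling and resting-type fibroblasts on both days, as did 11.2% of 4206 genes, a difference that was not tested. Col3a1 had log2 ratios of Ccr2-/- over WT of -0.14 and -0.52 in the cycling group on days 3 and 5 and of 0.05 and 0.05 in the resting-type group, a difference in means of -0.38. Col6a5 had 1.04 and 1.58 against -1.19 and -1.42, a difference of 2.61. Col18a1, the source of endostatin, had -0.24 and -0.81 against 0.27 and 1.12, a difference of -1.22. Of 16 members compared between fibroblast-like and perichondrial-like cells 1 did so (9.67% of 1769 genes), Col6a3, with -0.04 and -0.06 against 0.58 and 0.66, a difference of -0.67, again not tested.

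A cluster of 114 cells with vessel genes, which no class name covered and no comparison used, had 1428 CPM of Col4a1 and 374 CPM of Col15a1 over the summed pools, above the leukocyte levels of 22.2 to 37.7 CPM and 2.73 to 6.82 CPM.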

How the results depend on the processing

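No paired analysis was possible because the labels give the pools no shared replicate numbers, and pools of 1 day share only the day, which was a term of the genotype test. With T cell-like cells as the free-RNA level, in which 1 cell of WT day 3 held 68.6% of the collagen reads, the members at 5 times that level were 10 in perichondrial-like, 3 in lymphatic endothelial-like and 6 in pericyte- or smooth muscle-like cells, and marker gates gave 0 in lymphatic endothelial-like cells. In Schwann cell-like cells the count fell from 8 to 5 at 10000 reads per cell and to 1 without each member's cell of most reads in every pool, a setting chosen after seeing the data. Members higher in the cycling group were 2 at Leiden resolution 2, 0 with marker gates and 2 without doublets. The difference in collagen share was 0.782 to 2.27 points with 1 pool left out. Genes higher and lower in Ccr2-/- were 5 and 2 at a hashtag ratio of 10, 121 and 217 with marker gates, 19 and 12 without cells holding a Ptprc read, 121 and 239 with library sizes alone and 843 and 876 with DESeq2. They were 117 and 171 without the fibroblasts of the leukocyte-gene group, a setting chosen after seeing the data, and 0 and 0 at Leiden resolution 2, without doublets, with equal cells of each group and with no low-count filter. With 1 pool left out they were 0 to 133 and 0 to 202. Members higher in Ccr2-/- were 0 at a hashtag ratio of 10, at Leiden resolution 2, without doublets, with equal cells, with no filter and with any pool left out, and 3 with DESeq2. Members lower were 2 with marker gates, 1 without the leukocyte-gene group, 2 with library sizes alone, 13 with DESeq2 and 0 to 2 with 1 pool left out. Between days, genes higher were 1 with library sizes alone, 75 with DESeq2 and 0 to 1 with a pool left out, and genes lower 1 with equal cells, 80 with DESeq2 and 0 to 2. DESeq2 called 1 member up and 2 down by day, and with a pool left out 0 to 0 and 0 to 1. Col11a1 reversed to 0.15 (adjusted p = 0.947) with equal cells of each group. The causes were not tested. Of 133 level values under other settings, 120 stayed within the SD of the pools. Classes of under 20 cells in a pool and members under 1000 reads are limited by depth.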
